A study of Mus musculus with 4 samples.

Results

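Apoptosis genes of the caspase, BCL2 and death receptor families were described in hair follicle stem cells with and without the microRNA miR-205. The list named 31 genes, and 29 of them had at least 1 probe set annotated with that gene symbol alone. Those 29 genes had 75 of the 45101 probe sets in the table. Each gene was represented by its probe set of highest mean over the 4 arrays, and the same was done for all 18193 genes tested. Bax and Ripk1 were not analysed here.

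Hair follicle stem cells (HFSCs) renew the follicle through its cycles of growth and rest. The cells came from the skin of C57BL/6 mice at postnatal day 4 and were isolated by flow sorting. 2 arrays carried RNA of miR-205 KO (knockout) cells and 2 that of WT (wild-type) cells, numbered 1 and 2 in each genotype, and are called KO 1, KO 2, WT 1 and WT 2 below. The labels name neither the deleted allele nor a Cre driver, the sorting gate, or whether a sample was 1 animal or a pool. The treatment text that all 4 samples share is about induced miR-203, another microRNA, and was not used to assign groups. The labels call the replicates biological, and p-values measure only the spread between these samples.

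Apoptosis proceeds by a mitochondrial and a death receptor route. In the mitochondrial route BH3-only proteins relieve the block that BCL2, BCL-XL and MCL1 place on the pore-forming proteins BAX and BAK, and cytochrome c released from mitochondria assembles with APAF1 to activate caspase-9. In the death receptor route, receptors such as FAS gather the adaptor FADD and caspase-8, while the caspase-8-like protein cFLIP, encoded by Cflar, limits that step. In skin, caspase-8 is also known for its part in barrier maintenance and wound repair. MicroRNAs act on messenger RNAs mainly through pairing of the seed, which is bases 2 to 8 of the mature strand.

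The strands missing in the KO cells define the contrast, and both are shown from RefSeq (GRCm38.p6) with the seed in capitals. Mir205 lies on the minus strand of chromosome 1, with the 5p strand at chr1:193507503-193507524 and the 3p strand at chr1:193507467-193507488. Transcript 3′ ends were not analysed here, so no seed match was looked for.
mmu-miR-205-5p: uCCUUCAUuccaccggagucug
mmu-miR-205-3p: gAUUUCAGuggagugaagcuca

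Promoter windows of 300 bases, from 250 before to 50 after the RefSeq start, are shown for 3 members. Casp8 and Casp1 had the largest differences between the genotypes, and Cflar is the neighbour of Casp8 on chromosome 1, with no protein-coding gene between them in the RefSeq table. The windows are at chr1:58802252-58802551 for Casp8, chr1:58711241-58711540 for Cflar and chr9:5298267-5298566 for Casp1, all on the plus strand of GRCm38.p6. Capitals mark matches on either strand to 4 motifs: the GC box GGGCGG, the TATA box TATAAA, the E-box CACGTG and the AP-1 site TGANTCA. None of the 4 was present in the Casp8 window. The Casp1 window held the E-box once, and the Cflar window held an overlapping pair of TATA box matches, 1 on each strand.
Casp8: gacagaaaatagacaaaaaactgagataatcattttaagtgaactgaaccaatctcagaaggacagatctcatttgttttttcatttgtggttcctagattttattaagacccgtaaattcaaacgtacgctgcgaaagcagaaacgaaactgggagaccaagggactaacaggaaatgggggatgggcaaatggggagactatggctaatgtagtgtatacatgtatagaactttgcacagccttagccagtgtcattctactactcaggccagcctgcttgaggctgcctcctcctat
Cflar: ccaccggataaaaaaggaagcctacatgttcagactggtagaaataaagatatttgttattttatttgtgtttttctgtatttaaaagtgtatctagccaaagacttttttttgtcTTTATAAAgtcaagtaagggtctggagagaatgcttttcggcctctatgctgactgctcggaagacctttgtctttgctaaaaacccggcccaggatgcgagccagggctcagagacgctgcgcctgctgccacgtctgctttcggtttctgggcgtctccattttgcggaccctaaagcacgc
Casp1: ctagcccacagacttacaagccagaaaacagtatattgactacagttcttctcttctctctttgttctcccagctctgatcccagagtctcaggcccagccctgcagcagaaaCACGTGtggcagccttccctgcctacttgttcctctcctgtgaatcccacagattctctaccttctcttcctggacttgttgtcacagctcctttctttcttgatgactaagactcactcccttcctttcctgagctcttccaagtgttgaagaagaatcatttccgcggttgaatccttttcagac

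24 of the 29 genes had such a window. The GC box was found in 15 of the 24, among them Mcl1, Fas, Fadd and Xiap, against 35.91% of 27025 windows of all genes. The TATA box was found in 1 of the 24 (14.16% of all windows), the E-box in 2, those of Casp1 and Fas (7.24%), and the AP-1 site in 1, that of Fas (7.93%). The Casp8 window was 42.0% G or C and the Casp1 window 48.0%, against a median of 52.7% over all windows. A match is a stretch of letters in this window and was not tested as a site.

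Array-wide facts that touch these genes were few. The sex-linked RNA Xist was at 5.26 and 5.45 on KO 1 and KO 2 and at 13.28 and 13.19 on WT 1 and WT 2, and Y-linked Eif2s3y at 9.59 and 9.57 against 3.05 and 2.86 (deposited log2 values), so genotype and sex of the samples cannot be told apart. The summed level of 15 fibroblast markers, as log2 of the summed linear values, was 14.99 and 14.13 on the KO arrays and 15.70 and 13.84 on the WT arrays, and 14 of the 15 were highest on WT 1. Checked against the labelled cell type, all 10 basal keratinocyte markers and 13 of 14 HFSC markers lay above the median gene. Of 14 measured immune markers 1 and of 11 endothelial markers 1 lay above it. So did 14 of the 15 fibroblast markers, 7 of 10 markers of the differentiated epidermis and 4 of 10 melanocyte markers. This check therefore did not set the labelled cell type apart from fibroblasts. In bulk RNA, fewer cells of a type and less RNA per cell cannot be told apart.

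No apoptosis gene passed the test of KO against WT. Of the 29 genes 0 had an adjusted p under 0.05 (limma, Benjamini-Hochberg over all genes), against 2 of 18193 genes (0.011%), which were Xist and Eif2s3y. At an unadjusted p under 0.05 there were 3 of the 29, Casp8, Tnfrsf10b and Casp1, against 342 of all genes (1.88%). The median difference of the 29 genes was 0.05 on the log2 scale, beside 0.0082 over all genes, and the median size of a difference regardless of sign was 0.11, beside 0.07. KO and WT arrays did not overlap for 10 of the 29 genes, 5 higher and 5 lower in KO, where this was so for 13.9% of all genes (8.2% higher and 5.7% lower). Every member had an adjusted p of 1 (limma).

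**Figure D1:**
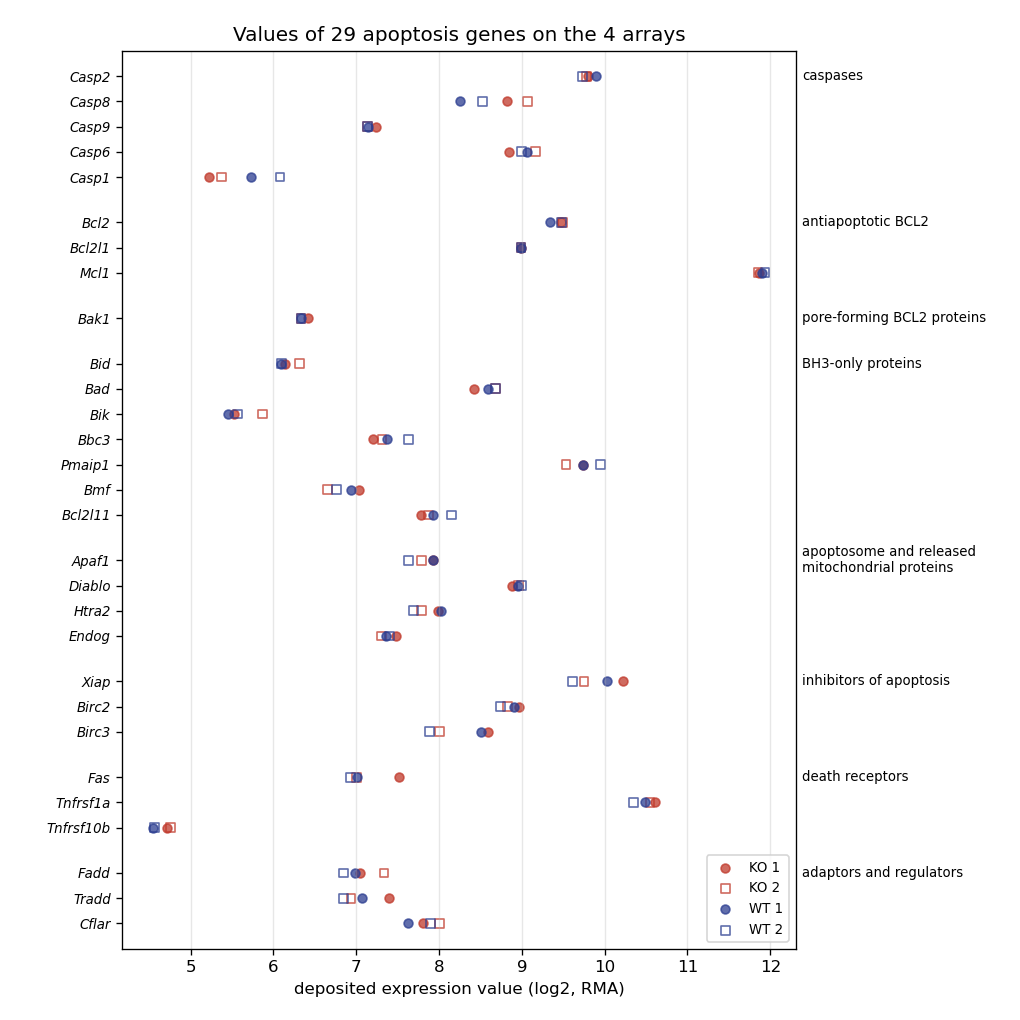
Deposited log2 values of the 29 genes on the 4 arrays, 1 row per gene and grouped by role. Red marks are KO and blue marks WT, filled circles number 1 and open squares number 2. The red and blue marks separate most widely for Casp8, where KO lies to the right, and for Casp1, where KO lies to the left.

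The caspases held both of the largest differences, in opposite directions. Casp8, the initiator caspase of the death receptor route, was at 8.82 on KO 1, 9.07 on KO 2, 8.25 on WT 1 and 8.52 on WT 2. Both KO arrays lay above both WT arrays, and within each genotype number 2 was the higher. The KO mean was 8.95 ± 0.18 and the WT mean 8.39 ± 0.19 (log2, SD, n = 2 each). KO was higher by 0.56 (SE 0.15), with a 95% interval of 0.08 to 1.04, which is 1.47-fold (limma unadjusted p = 0.034, adjusted p = 1). The difference was 0.57 within number 1 and 0.55 within number 2. Casp8 had 1 probe set, so no second probe set could be set beside it. Without any 1 array its difference was 0.42 to 0.69, and its unadjusted p of 0.083 to 0.188 was then above 0.05 (limma).

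Casp1, the inflammatory caspase that processes interleukin-1 beta, was at 5.23 on KO 1, 5.37 on KO 2, 5.73 on WT 1 and 6.08 on WT 2. Here both KO arrays lay below both WT arrays, and WT 2 was the highest. KO minus WT was -0.61 (SE 0.16), with a 95% interval of -1.10 to -0.12 (limma unadjusted p = 0.029, adjusted p = 1), with -0.50 within number 1 and -0.71 within number 2. Casp1 also had 1 probe set, and its mean of 5.60 lay under that of the median gene, 6.88, so it cannot be told from background in a table without detection calls. Without WT 1 its unadjusted p was 0.030, and without any other single array 0.073 to 0.198 (limma). Of all genes, 1.87% differed by 0.4 or more in either direction, and Casp8 and Casp1 were the 2 members that did.

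Marker lists were set beside these values. The summed level of the 14 immune markers was 9.23 and 9.42 on the KO arrays and 9.21 and 9.48 on the WT arrays, and 13 of the 14 had a mean under that of the median gene, as Casp1 had. The macrophage marker Cd68 is singled out here with its values already known. It was at 5.34 and 6.02 on the KO arrays and 5.43 and 6.89 on the WT arrays, highest on WT 2 as Casp1 was. Of the 14 immune markers 6 were higher and 6 lower in KO on average, with a median difference of 0.0. The highest array was WT 2 for 5 of the 14. Among the other myeloid markers listed, the difference was -0.08 for C1qa, 0.02 for Itgam, 0.08 for Csf1r and 0.15 for Lyz2. The part of immune cells in the difference of Casp1 was not tested. The summed level of 10 genes of the differentiated epidermis was 13.82 and 13.84 on the KO arrays and 13.39 and 13.16 on the WT arrays. Of the 10, 9 were higher in KO on average (52.9% of all genes). The basal keratinocyte sum was 15.55 and 15.52 on the KO arrays and 15.42 and 15.39 on the WT arrays. The HFSC sum was 15.09 and 15.10 against 14.97 and 14.97, with 5 markers higher and 8 lower in KO on average. The part of any of these lists in the difference of Casp8 was not tested.

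On the probe sets used, the remaining caspases showed no such separation. Casp2, an initiator caspase, was at 9.80, 9.78, 9.89 and 9.73 on KO 1, KO 2, WT 1 and WT 2. Casp9, the initiator of the mitochondrial route, had exactly the same value of 7.14 on 3 arrays and 7.24 on KO 1. Casp6, an executioner caspase, changed sign between the numbers, at -0.22 within number 1 and 0.17 within number 2. Its second, dimmer probe set was at 5.34 and 5.46 on the KO arrays and 5.68 and 5.74 on the WT arrays, a difference of -0.31. There both KO arrays lay below both WT arrays. With probe sets tested singly its unadjusted p was 0.019 (limma), and it did not pass after adjustment.

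The antiapoptotic BCL2 genes had small differences. Mcl1, which holds BAK and the BH3-only proteins in check, was at 11.86, 11.85, 11.90 and 11.94 on KO 1, KO 2, WT 1 and WT 2. KO was lower by a small margin, with a difference of -0.06 and an SE of 0.04, and all 6 probe sets of Mcl1 had a negative difference, from -0.16 to -0.02. Bcl2 was at 9.47, 9.49, 9.34 and 9.47, and its 5 probe sets ran from -0.10 to 0.09. Bcl2l1, which encodes BCL-XL, had the identical value of 8.99 on all 4 arrays, and its other probe sets ran from -0.23 to 0.09. The 95% interval of the difference was -0.19 to 0.07 for Mcl1, -0.13 to 0.28 for Bcl2 and -0.12 to 0.12 for Bcl2l1. With 4 identical values, the interval of Bcl2l1 was set by the moderated fit over all genes and is no bound on its difference. Bak1, the pore-forming member measured, was at 6.33 on 3 arrays and 6.42 on KO 1. Its mean of 6.36 also lay under that of the median gene, 6.88.

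BH3-only genes went both ways. 3 of the 7 had both KO arrays below both WT arrays (5.7% of all genes), and 1, Bid, had both above (8.2% of all genes). None of the 7 had an unadjusted p under 0.05 (limma). Bbc3, which encodes PUMA, a protein induced by p53, was at 7.21, 7.31, 7.37 and 7.64 on KO 1, KO 2, WT 1 and WT 2. Bcl2l11, which encodes BIM, a protein induced on loss of growth factor signals, was at 7.79, 7.88, 7.93 and 8.15. Pmaip1, which encodes NOXA, the partner of MCL1, was at 9.74, 9.53, 9.74 and 9.95. In all 3 the highest array was WT 2, and the KO and WT arrays nearest to each other were KO 2 and WT 1 for Bbc3 and Bcl2l11 and KO 1 and WT 1 for Pmaip1.

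The difference was -0.24 (SE 0.12) for Bbc3, -0.21 (SE 0.11) for Bcl2l11 and -0.21 (SE 0.12) for Pmaip1, with limma unadjusted p of 0.14, 0.14 and 0.19 and adjusted p of 1 for each. Nearly all of the Pmaip1 difference lay within number 2, at -0.42 against -0.0037 within number 1. Bcl2l11 had 5 probe sets. The second differed by -0.30 within both numbers, and the other 3 ran from -0.0055 to 0.09.

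The other 4 BH3-only genes had differences of both signs. Bid, the link from caspase-8 to mitochondria, was at 6.14, 6.31, 6.09 and 6.10 on KO 1, KO 2, WT 1 and WT 2, a difference of 0.13 (SE 0.08). Bik, a BH3-only protein of the endoplasmic reticulum, was at 5.53, 5.87, 5.46 and 5.57, and only KO 2 stood apart. Bid and Bik had means of 6.16 and 5.61, under that of the median gene, 6.88, so the limit given for Casp1 holds for them too. Bad, which AKT phosphorylates and thereby restrains, had the same value of 8.68 on KO 2 and WT 2 and was lower on KO 1, at 8.43. Bmf, which senses loss of attachment, differed by -0.0019 on the probe set used, with opposite signs in the 2 numbers. That probe set had a mean of 6.84, also under the median gene. The other, dimmer probe sets of Bmf differed by 0.13 and 0.25, with KO higher within both numbers. In the one at 0.13 both KO arrays lay above both WT arrays.

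**Figure D2:**
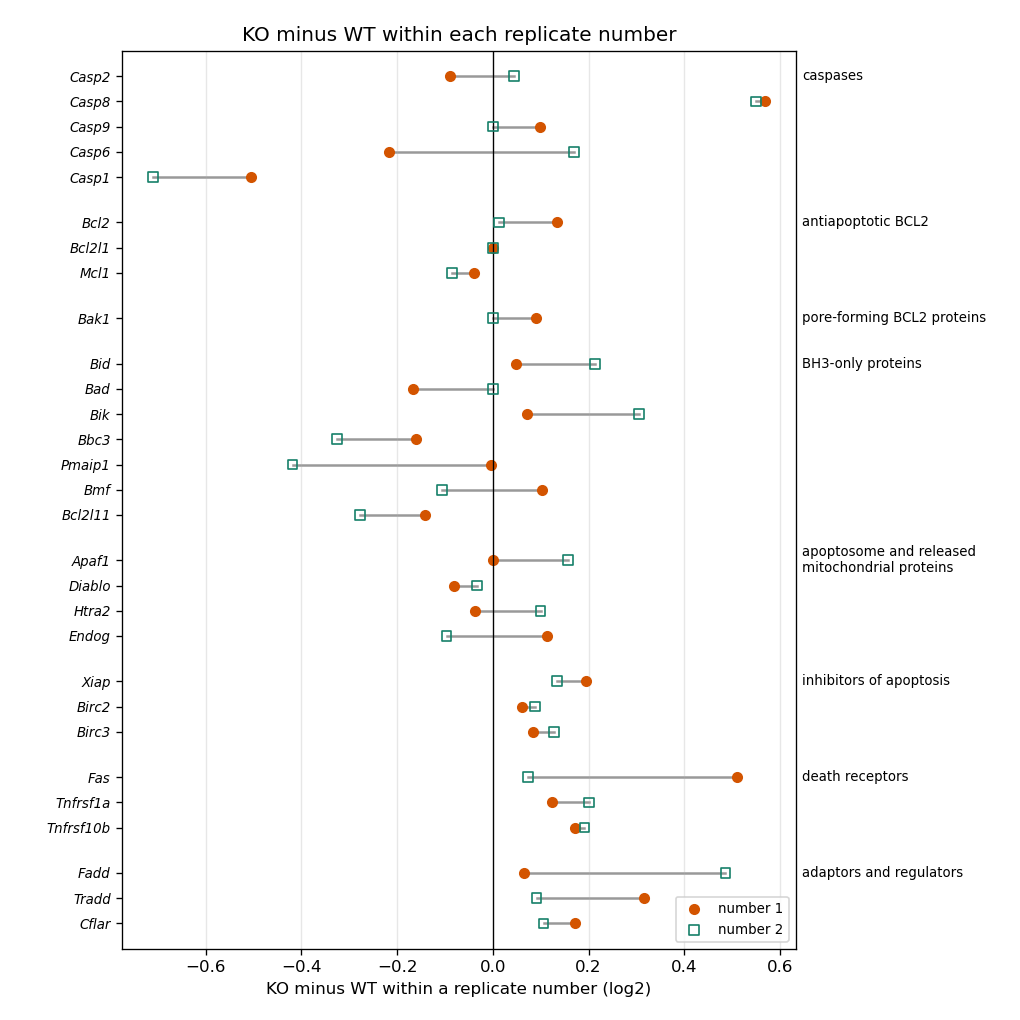
KO minus WT (log2) of each gene within number 1 (filled circles) and within number 2 (open squares), joined by a line. Both marks of every inhibitor of apoptosis, death receptor and adaptor lie to the right of 0, those of Bbc3, Pmaip1 and Bcl2l11 lie to the left, and the length of a line shows how far the numbers differed.

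For the death receptor and adaptor genes measured, the probe set used for each had higher values in KO within both numbers. This held for 3 of 3 receptors and 3 of 3 measured adaptors and regulators, as it did for Casp8. Of all genes 24.0% were higher in KO within both numbers, and of the 29 genes 13 were, while 6 of the 29 were lower within both numbers (16.8% of all genes). KO and WT were exactly equal within a number for 4 of the 29 and for 24.4% of all genes, which lowers the shares over all genes. 18 of the 29 had a higher mean in KO and 10 a lower one (52.9% and 45.0% of all genes). The median difference was 0.18 for the receptors and 0.20 for the adaptors and regulators, and no gene of either class passed the test. With 3 genes in each class, these medians are the values of Tnfrsf10b and Tradd. Their other probe sets had negative differences, as given below. Without KO 1 the value of Tradd was -0.02, and with the mean of probe sets that of Cflar was -0.02.

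Fas was at 7.52 on KO 1, 7.005 on KO 2, 7.005 on WT 1 and 6.93 on WT 2. KO 1 alone stood apart, and KO 2 and WT 1 had the same value, so the difference of 0.29 (SE 0.21) was 0.51 within number 1 and 0.07 within number 2. Tnfrsf1a, the main receptor for TNF, was at 10.61, 10.55, 10.49 and 10.35 on KO 1, KO 2, WT 1 and WT 2, and the KO pair lay above the WT pair. Its difference was 0.16 (SE 0.07, limma unadjusted p = 0.11).

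Tnfrsf10b, the mouse receptor for TRAIL, was at 4.72, 4.75, 4.55 and 4.56. The difference of 0.18 (SE 0.04) had the smallest p of the 29 genes (limma unadjusted p = 0.020, adjusted p = 1), beside 9 members with a larger difference in either direction. This was a dim probe set, averaging 4.64, and the second probe set of the gene differed by -0.12. With the mean of both probe sets the difference was 0.03 (limma unadjusted p = 0.61).

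Fadd, the adaptor that joins FAS to caspase-8, was at 7.05, 7.33, 6.99 and 6.85 on KO 1, KO 2, WT 1 and WT 2. KO 2 was the highest and the other 3 lay close together, so the difference of 0.28 (SE 0.13) was 0.07 within number 1 and 0.49 within number 2. Tradd, the adaptor of TNF receptor 1, was at 7.39, 6.94, 7.07 and 6.85, with KO 1 the highest and the groups overlapping. Its other 2 probe sets differed by -0.03 and -0.10, and the mean of its 3 probe sets by 0.02 where the one used differed by 0.20. Cflar was at 7.80, 8.01, 7.63 and 7.90, also overlapping, with a difference of 0.14 (SE 0.14) beside the 0.56 of its chromosomal neighbour Casp8. Of the 4 other probe sets of Cflar 3 had a negative difference, down to -0.17.

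On the probe sets used, the 3 inhibitors of apoptosis differed more between the numbers than between the genotypes, as 65.4% of all genes did. Birc3, which encodes the ubiquitin ligase cIAP2, was at 8.59 and 8.51 on KO 1 and WT 1 and at 8.01 and 7.88 on KO 2 and WT 2. Number 1 was higher by 0.61 on average, while KO was higher by 0.11 (SE 0.35). A second, dimmer probe set of Birc3 had the same value of 0.22 for both differences. Xiap, the direct inhibitor of caspase-9 and the executioner caspases, was at 10.22 and 10.03 on the number 1 arrays and at 9.75 and 9.62 on those of number 2, apart by 0.44, while KO was higher by 0.16 (SE 0.26). Xiap lies on the X chromosome, and the arrays of the 2 genotypes differ in Xist as given above. A second probe set of Xiap differed by 0.42, with WT 1 low, at 7.21 against 7.82 to 7.98 on the other arrays. There number 1 minus number 2 was -0.26, opposite in sign to the probe set used and smaller than the genotype difference. Birc2, which encodes cIAP1 and neighbours Birc3 on chromosome 9, was at 8.97 and 8.91 on number 1 and at 8.82 and 8.74 on number 2.

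**Figure D3:**
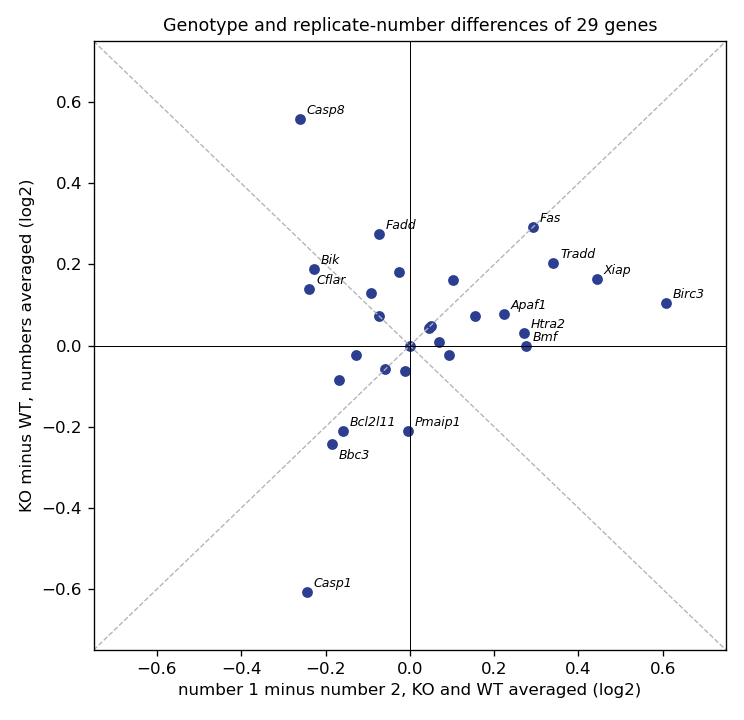
Each point is 1 of the 29 genes, with the mean difference between the numbers across and the mean difference between the genotypes up, both in log2. Dashed diagonals mark equal size. Casp8 and Casp1 lie above and below the diagonals, where the genotype difference is the larger, and Birc3, Xiap and Tradd lie beside them, where the number difference is.

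Over the 29 genes the number difference was larger than the genotype difference for 15, against 65.4% of all genes. Its median size was 0.16 for the 29 genes and 0.11 for all genes. 10 of the 29 genes were higher on number 1 in both genotypes and 11 were higher on number 2 (28.4% and 28.9% of all genes). Neither direction prevailed among the members or over all genes. The highest array was WT 1, the array richest in fibroblast RNA, for 3 of the 29 genes, Casp2, Apaf1 and Htra2 (17.4% of all genes).

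The apoptosome gene and the genes of released mitochondrial proteins had small mean differences between the genotypes. Apaf1, the scaffold that activates caspase-9, was at 7.93 on both number 1 arrays and at 7.79 and 7.63 on KO 2 and WT 2. Htra2, a mitochondrial protease that relieves XIAP, was at 7.99, 7.79, 8.03 and 7.69 on KO 1, KO 2, WT 1 and WT 2, also split by number. Diablo, which likewise binds XIAP, was at 8.88, 8.96, 8.96 and 8.99, and Endog, a mitochondrial nuclease, at 7.48, 7.30, 7.36 and 7.40. The differences of the 4 genes ran from -0.06 to 0.08.

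**Figure D4:**
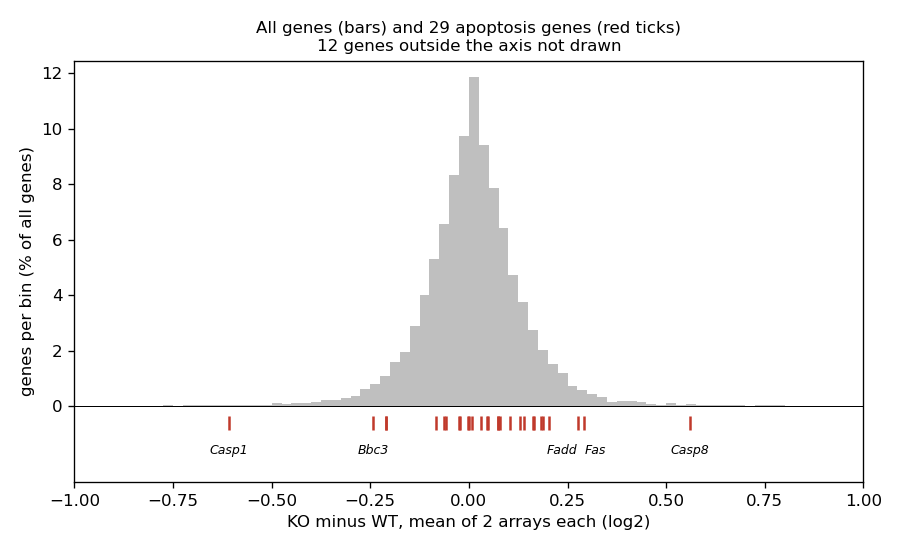
Grey bars give the share of all 18193 genes at each KO minus WT difference (log2), and red ticks below give the 29 genes. Most ticks lie under the centre of the bars, and Casp8 at 0.56 and Casp1 at -0.61 lie where few genes do.

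The 95% intervals show what 2 arrays per group can resolve. The margin to either side of a difference ran from 0.12 to 1.09, with a median of 0.38, and 3 of the 29 intervals excluded 0. The smallest margin was that of Bcl2l1, whose values were identical on all arrays. It was set by the moderated fit over all genes and does not measure the precision for that gene. For 26 of the 29 genes the interval lay within 1 log2 unit of 0 on both sides. The 3 that reached further were Casp8, Casp1 and Birc3 (-0.99 to 1.20). Exactly equal values on at least 2 arrays occurred for 6 of the 29 genes (Casp9, Bcl2, Bcl2l1, Bak1, Bad and Fas) and for 43.0% of all genes, and they narrow the measured spread.

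Different probe sets of a gene often disagreed in sign. Of the 21 genes with several probe sets, all had 1 sign in 9, which were Apaf1, Bad, Bak1, Bik, Birc3, Casp6, Endog, Fadd and Mcl1. For Apaf1 a dim second probe set differed by 0.32, where KO 2 at 5.60 stood above 3 arrays at 4.95 to 4.96.

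**Figure D5:**
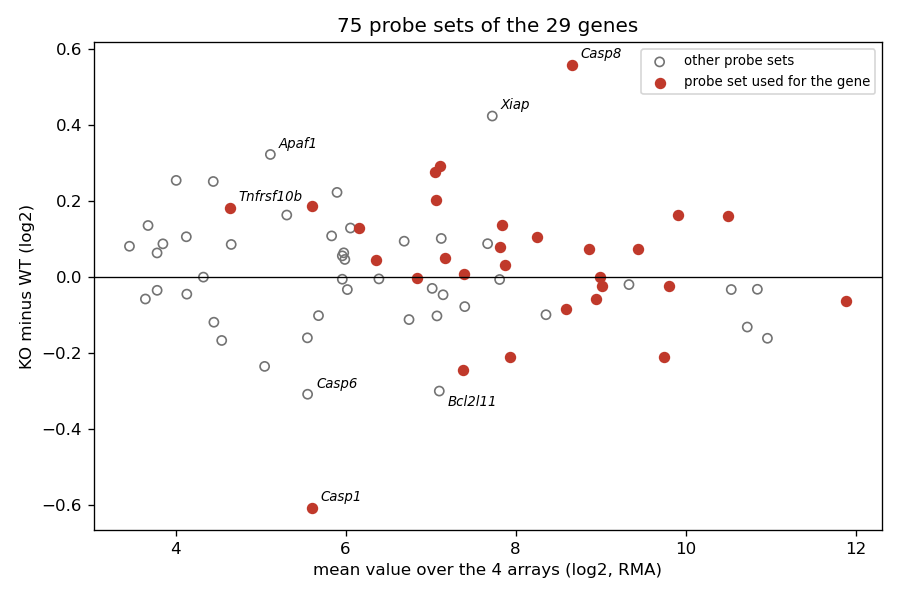
Each point is 1 of the 75 probe sets of the 29 genes, with its mean over the 4 arrays across and KO minus WT up, both in log2. Filled red points are the probe sets used, open points the others. Casp8 at 0.56 and Casp1 at -0.61 are the outermost, and the open points scatter to both sides of 0.

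Other genes of the same pathways were set beside the members. Of 54 further apoptosis genes 48 were measured, and 0 had an unadjusted p under 0.05 (limma), with 21 higher, 26 lower and a median of -0.0031. Both KO arrays lay above both WT arrays for 4 of the 48 and below them for 2 (8.2% and 5.7% of all genes). Those of smallest p were the chaperone partner Bag3 at -0.23 (SE 0.09), the FAS-associated factor Faf1 at 0.12 (SE 0.05), the ligand of FAS, Fasl, at 0.23 (SE 0.10, a dim probe set) and the FAS-binding protein Daxx at 0.09 (SE 0.04). Of 23 p53 pathway genes 22 were measured, and 0 had an unadjusted p under 0.05 (limma), with 13 higher, 9 lower and a median of 0.0084. Both KO arrays lay above both WT arrays for 2 of the 22 and below them for 0. Those of smallest p were Phlda3 at 0.33 (SE 0.13), the ribonucleotide reductase subunit Rrm2b at 0.19 (SE 0.08), the p53 relative Trp63 at 0.13 (SE 0.12) and the receptor Eda2r at 0.13 (SE 0.12).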

How the data were processed

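The deposited values are log2 expression per probe set that the authors made with RMA, as listed without a version in the submitters' processing notes. RMA sets all arrays to 1 distribution, so the values carry no depth, and the number of arrays limits the precision. Array medians were 5.85 to 5.87. Of the probe sets 34945 had 1 gene symbol in the platform annotation, 932 had several and 9160 none, and 64 were controls. Symbols were updated by gene identifier against RefSeq GRCm38.p6 (34741 matched).

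The 2 genotypes were fitted with limma 3.58.1 under R 4.3.3, using lmFit and eBayes with two-sided tests and neither covariates nor a filter. P-values were adjusted by Benjamini-Hochberg over 18193 genes, with a threshold of 0.05. Differences are KO minus WT in log2, and SE and intervals are moderated. The fit was run on simulated data with changes larger than any member showed, so that run does not bear on differences of the members' size. The members and lists were chosen with earlier results of these data known. Genes named are all members and up to 4 of smallest p from each pathway list, with all probe sets of Casp8 and of members with an unadjusted p under 0.05 or a difference of 0.4 or more. Other probe sets were named after their values were seen, and the promoter motifs were chosen with the windows in view.

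Alternatives were repeated quantile normalization, median centring, dim genes left out (mean under the median gene), probe sets averaged per gene or tested singly, the replicate number as block, eBayes with trend and robust, and each array left out in turn.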

Additional observations from a re-analysis of the deposited data

How the results depend on the processing

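No member passed an adjusted p under 0.05 under any alternative run (limma). Of all genes 2 passed, and 3 did with repeated quantile normalization, 3 with median centring, 1 without dim genes, 0 with averaged probe sets, 0 with probe sets tested singly, 0 with the replicate block and 0 without any single array. 3 members had an unadjusted p under 0.05, and 1 did without dim genes (which left 23 of the 29), where 1 to 4 did without single arrays. The members under 0.05 were not the same genes throughout. Without KO 1 they were Bid and Tnfrsf10b, and without KO 2 Bak1, Casp9, Fas and Tnfrsf10b. Without WT 1 only Casp1 remained, and without WT 2 Bcl2 and Tnfrsf10b. The share of all genes under 0.05 was not counted for the alternatives, so these member counts have no background beside them. The members' median of 0.05 was 0.058 with median centring and 0.025 with averaged probe sets, and ran from -0.010 to 0.089 without single arrays. Median centring turned Bmf to 0.0067. Averaged probe sets turned Casp9 to -0.052, Bmf to 0.13, Diablo to 0.025 and Cflar to -0.023. Without single arrays 11 members changed sign, with Casp2 from -0.10 to 0.057, Casp6 from -0.18 to 0.14, Bad from -0.21 to 0.042, Bmf from -0.19 to 0.19, Apaf1 from -0.073 to 0.23, Htra2 from -0.14 to 0.20, Endog from -0.079 to 0.096, Xiap from -0.073 to 0.40, Birc2 from -0.010 to 0.16, Birc3 from -0.21 to 0.42 and Tradd from -0.023 to 0.43. The cause was not tested. The other 18 changed no sign. Same-numbered arrays deviated together over all genes (r = 0.56, across genes, which are not replicates), but with 2 numbers and no label on a shared litter or day the number is not known to pair samples. Each number holds a KO and a WT array, so the replicate block cannot change a difference, only its p-value. With the block, Casp8 at 0.56 had an unadjusted p of 0.0031 and an adjusted p of 0.81 (limma). Casp1 at -0.61 had an unadjusted p of 0.0098 and an adjusted p of 0.81 (limma). Dim probe sets and 2 arrays per group limit what could be resolved.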
